A study of Mus musculus with 2 samples.

Results

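Slc12a2 and Slc12a5 encode the transporters NKCC1 and KCC2, which set the chloride level of neurons. They were chosen by name, as 2 of 21938 protein-coding gene models of GENCODE M21, and each was followed over its gene body with 50 kb on either side, with every annotated transcription start taken separately. Slc12a2 (ENSMUSG00000024597.11) lies on the plus strand of chromosome 18 at 57878678 to 57946821 in mm10, and its region spanned 168 kb. Slc12a5 (ENSMUSG00000017740.17) lies on the plus strand of chromosome 2 at 164960802 to 164999731, and its region spanned 139 kb. Slc12a2 has 2 annotated starts and Slc12a5 has 10.

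Both transporters move chloride together with cations across the plasma membrane. NKCC1 brings sodium, potassium and chloride in, and KCC2, which is largely restricted to neurons, uses the potassium gradient to take chloride out. In immature rodent neurons a high chloride level lets GABA depolarise the cell. As KCC2 becomes abundant during early postnatal life chloride falls and GABA becomes inhibitory, a change known as the GABA switch. Slc12a5 makes the isoforms KCC2a and KCC2b from alternative first exons, and KCC2b is the main form of the mature cortex.

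Chromatin accessibility was measured by DNase-seq, in which DNase I cleaves DNA that nucleosomes do not cover. The tissue was the left cerebral cortex of male B6CASTF1/J mice, a cross of C57BL/6J with CAST/EiJ, at 14 days of age. All animals belonged to 1 group, with no treatment and no other age, and 2 biological replicates were used. The label of replicate 1 names 3 males and that of replicate 2 names 1 male. A single donor ID appears on both, and it is not clear whether it denotes the animals or the strain. The SD values below are therefore the spread between 2 libraries, and no test between conditions exists in this design. In the hybrid both parental alleles contribute to each value. In a whole tissue, fewer cells with an open site and less accessibility per cell cannot be told apart.

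Replicate 1 held 150726 peaks and replicate 2 held 155536, with 380111 and 379156 footprints, the short protected stretches left by bound proteins inside open DNA. Peak signal was taken as the height of the peak on the authors' own depth-scaled units, and its median was 0.549 and 0.663. Promoter peaks were present at 6 of 6 markers of cortical excitatory neurons, 5 of 5 of interneurons, 5 of 5 of astrocytes and 5 of 5 of oligodendrocyte precursors in both libraries, where the share of all protein-coding gene models was 68.7% and 68.1%. Endothelial markers had 4 of 5 in each library, with none at Cldn5, and microglial markers had 4 and 5 of 5. They were present at 3 and 2 of 5 choroid plexus markers, with none at Ttr or Folr1. Cerebellum and hindbrain markers had 2 of 5 in each library and liver markers 1 and 0 of 5, with none at Gabra6, Barhl1, Apoa2 or Ahsg. Summed over the choroid plexus list, an epithelium known to express NKCC1, promoter signal was 1.51 and 0.835, and the part of that tissue in the Slc12a2 values was not tested.

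The sequences behind the Slc12a5 results are shown first, because this gene opens at separate first exons. They are reference (C57BL/6J) sequence of GRCm38, the assembly that mm10 names, on the plus strand, and the stretches before the starts were matched to 2 RefSeq promoter entries. The stretch before the KCC2a start is chr2:164960596-164960801 and the stretch before the KCC2b start is chr2:164967738-164967982; capitals mark matches to searched words. In the intronic site (chr2:164961901-164962100) and the intergenic site (chr2:164924561-164924760), the strongest inside a Slc12a5 intron and the strongest intergenic one over 2500 bp from any start, capitals mark bases inside footprints of both libraries.
KCC2a upstream: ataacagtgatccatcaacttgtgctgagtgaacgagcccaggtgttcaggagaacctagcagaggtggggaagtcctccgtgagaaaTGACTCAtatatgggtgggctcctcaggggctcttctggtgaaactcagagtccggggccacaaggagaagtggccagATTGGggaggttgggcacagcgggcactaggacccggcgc
KCC2b upstream: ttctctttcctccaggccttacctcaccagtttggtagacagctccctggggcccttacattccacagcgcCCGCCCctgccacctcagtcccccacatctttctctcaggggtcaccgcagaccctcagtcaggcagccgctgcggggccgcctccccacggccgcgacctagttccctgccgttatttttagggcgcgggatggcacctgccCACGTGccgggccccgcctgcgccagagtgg
intronic site: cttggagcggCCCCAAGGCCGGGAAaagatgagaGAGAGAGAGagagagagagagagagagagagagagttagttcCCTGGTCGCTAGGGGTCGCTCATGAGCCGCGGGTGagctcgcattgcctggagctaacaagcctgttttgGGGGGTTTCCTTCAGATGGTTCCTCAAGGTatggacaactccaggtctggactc
intergenic site: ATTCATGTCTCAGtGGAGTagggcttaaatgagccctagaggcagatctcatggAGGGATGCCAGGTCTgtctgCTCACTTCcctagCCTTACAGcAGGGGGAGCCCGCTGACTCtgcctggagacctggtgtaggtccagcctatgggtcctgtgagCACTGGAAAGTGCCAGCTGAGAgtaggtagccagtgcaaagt

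Slc12a2 and Slc12a5 each showed promoter peaks, meaning peaks no more than 1000 bp from an annotated start, in both libraries. So did 66.7% of protein-coding gene models (68.7% in replicate 1 and 68.1% in replicate 2). The strongest promoter peak of Slc12a2 had a signal of 3.12 in replicate 1 and 3.99 in replicate 2 (3.55 ± 0.620, SD, n = 2). That of Slc12a5 had 2.41 and 2.48 (2.45 ± 0.0503). Slc12a2 was the higher of the pair in each library, by 0.37 and 0.69 on the log2 scale (0.53 ± 0.223). Among genes with a promoter peak, the Slc12a2 value stood at percentiles 44.2 and 49.6 and the Slc12a5 value at 35.9 and 34.6, so neither gene was among the strongly open promoters of the tissue. The median promoter signal of genes open in both libraries was 3.62 and 4.04.

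Slc12a2, the chloride importer, was open at its 5′ end and almost nowhere else in the gene. At the start of its coding transcript (57878678, Slc12a2-201) the strongest peak lay upstream, at 57878061 to 57878320 in replicate 1 and 57878101 to 57878300 in replicate 2, with its edge 358 bp and 378 bp from the start. A second peak at 57878381 had signals of 1.42 and 1.49 (1.45 ± 0.0465) and covered the start itself in replicate 1. Beyond the start, the peaks on the first coding exon and the beginning of the intron were weak, with 0.530 to 0.688 in the sites found in both libraries, and the last of the cluster, an intronic site whose edge is 1643 bp from the start in replicate 1, had 0.317 and 0.350. The second annotated start (57927205, the retained-intron transcript Slc12a2-202), 48527 bp farther on, had 0 peaks and 0 footprints within 1000 bp in either library.

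The first start of Slc12a2 carried the firmest signal of the pair by the authors' q-value (false discovery rate) of cleavage, given for each listed interval. Its best value within 1000 bp was 1.34e-59 in replicate 1 and 1.02e-48 in replicate 2, over 1945 bp and 1932 bp of listed intervals. Replicate 1 had 13 footprints there and replicate 2 had 15. The window of 250 bp before to 50 bp after this start had a GC content of 79.7% with 54 CpG dinucleotides, at percentiles 98.9 and 99.7 of all protein-coding 5′ ends, whose medians were 55% and 11. The strongest peak was not the most CpG-rich, since its central 200 bp held 20 CpGs in either library, while those of the neighbouring peak held 39 and 40. The word GGGCGG, bound by SP and KLF factors, was matched in footprints of both libraries close to the start, in 2 footprints of each. This word was found in 35.7% of RefSeq promoter windows, and the window at this start is rich in GC. Over the Slc12a2 region, any searched word was matched in 3 of 27 footprints of replicate 1 and 5 of 25 of replicate 2. Most footprints of the region thus held none of the searched words.

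The rest of the 68.1 kb gene body of Slc12a2 was nearly empty. More than 2500 bp from its starts, replicate 1 listed 1 peak, at 57907148 to 57907205 with a signal of 0.265, and replicate 2 listed 0. Among the 1115 protein-coding genes within 10 kb of its length, a band added after the values were seen, the median was 3 peaks in either library. As few peaks as in Slc12a2 were found in 28.8% of these genes in replicate 1 and in 12.4% in replicate 2, and 8.97% had none in either.

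Beyond the 3′ end, Slc12a2 was followed by a pair of strong intergenic sites. The site at 57965581 to 57965740 had signals of 2.74 and 2.25 (2.50 ± 0.345) and the one at 57976761 to 57976900 had 2.65 and 2.65 (2.65 ± 0.00323). Each had the same limits in both libraries and stood high among all peaks by signal, at percentiles 90.7 and 87.7 for the first and 90.3 and 90.1 for the second. They lie 87.0 kb and 98.2 kb from the first start. The nearest annotated start of any gene is that of Slc12a2-202, 38376 bp and 49556 bp from their edges. That start had 0 peaks within 1000 bp in either library, and a link of the sites to any gene was not tested. A weaker site followed at 57990461 (0.493 and 0.645), nearest to a start of Fbn2, the fibrillin-2 gene. No other protein-coding gene lies in the region.

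**Figure D1:**
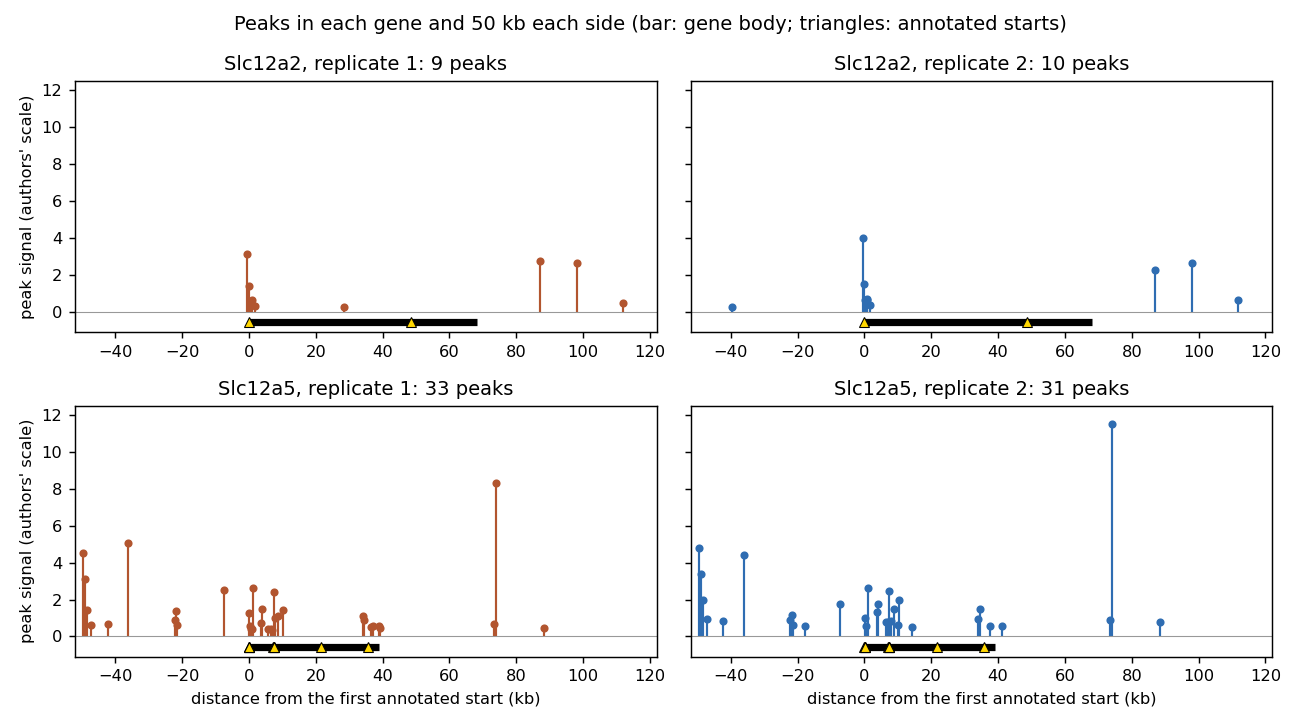
Peak signal (vertical axis, authors' scale) against the distance from the first annotated start in kb, for Slc12a2 (top) and Slc12a5 (bottom) in replicate 1 (left) and replicate 2 (right). Each line with a dot is a peak, the bar is the gene body and triangles are annotated starts; Slc12a2 has 9 and 10 peaks, mostly at its 5′ end and beyond its 3′ end, with a weak one inside the gene in replicate 1 (0.265) and one before it in replicate 2 (0.276). Slc12a5 has 33 and 31, in its first part, near its 3′ end and in both flanks.

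Slc12a5, the chloride exporter, was open at both of its first exons, at sites between and shortly after them, and near its 3′ end. The KCC2a side has 4 annotated starts between 164960802 and 164960846, including those of the coding transcripts Slc12a5-209 and Slc12a5-207. A single peak covered them, at 164960741 to 164960920 in replicate 1 and 164960721 to 164960940 in replicate 2, with 1.25 and 0.977 (1.11 ± 0.193). The KCC2b side has 4 starts between 164967983 and 164968281, the first that of the coding transcript Slc12a5-201. Its peak, at 164968141 to 164968360 and 164968121 to 164968340, had 2.41 and 2.48 (2.45 ± 0.0503) and covered the later 3 starts but not the first. The KCC2b peak was the higher in both libraries, and the values of the starts did not overlap.

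The other 2 starts of Slc12a5 belong to retained-intron transcripts. Slc12a5-204 (164982437) had 0 peaks and 0 footprints within 1000 bp in either library. Slc12a5-205 (164996591) had a peak of 0.497 in replicate 1 and none in replicate 2. Of the 10 annotated starts, 8 thus had a peak in both libraries, and these 8 shared 2 strongest promoter peaks. Counting weaker ones, 9 peaks of replicate 1 and 6 of replicate 2 lay within 1000 bp of a start. On the KCC2a side a site at 164961021, 175 bp from a start, had 0.549 and 0.553, and replicate 1 alone listed peaks at 164961361 (0.421) and 164961441 (0.417). Before the KCC2b starts a site at 164967272 had 0.403 and 0.811, and replicate 1 alone listed a peak of 0.355 at 164967591.

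The first exons of Slc12a5 differed between the libraries less in height than in the area called significant. Within 1000 bp of the start of Slc12a5-203, the first of the gene, the best false discovery rate was 2.36e-15 in replicate 1 and 1.34e-06 in replicate 2, over 1080 bp and 390 bp. Within 1000 bp of the Slc12a5-201 start it was 1.52e-36 and 4.92e-11, over 1372 bp and 1009 bp. Footprints followed the same order, with 10 and 6 at the KCC2a start and 16 and 7 at the KCC2b start. Within 1000 bp of the first Slc12a2 start the counts were 13 and 15, so there replicate 2 did not have the lower number. Over the Slc12a2 region the counts were 27 and 25, and over its gene body 2 and 0.

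The start windows of Slc12a5 were less CpG-rich than that of Slc12a2. The window at 164960802 had a GC content of 60.3% with 15 CpGs (percentiles 67.9 and 59.5), and the one at 164967983 had 68.3% with 21 (87.4 and 72.9). Few footprints lay in the stretches before the starts. The KCC2a stretch had 1 in each library, over 9 and 2 of its 206 bases. The KCC2b stretch had 3 in replicate 1 and 0 in replicate 2, over 17 and 0 of its 245 bases. No word searched matched in them, which with so few bases covered says little about whether the words are occupied. In the KCC2a stretch the matches were TGANTCA, the AP-1 word, and CCAAT, the NFY word. In the KCC2b stretch they were GGGCGG and CACGTG, the E-box bound by USF1 and USF2, which have been reported to activate this promoter. Among 32851 RefSeq promoter windows of 300 bases, either strand, CACGTG was found in 7.15%, TGANTCA in 7.81%, GGGCGG in 35.7% and CCAAT in 37.4%. Replicate 2 alone listed a narrow peak of 0.792 over the CACGTG match, at 164967909 to 164967974. The best false discovery rate over that stretch was 3.81e-11 in replicate 1 and 0.0258 in replicate 2, so both libraries had significant intervals there.

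Just inside the transcribed part, footprints of both libraries held matches close to each first exon. Those shown have 5 bp on either side and the matched word in capitals, all on the plus strand. The KCC2a footprint shown starts 65 bp after the first start of the gene (chr2:164960862-164960886 with its margins) and holds GGGCGG on the other strand. A further KCC2a footprint of both libraries, at 164961183 to 164961190 in replicate 2, starts 381 bp after that start. It also holds GGGCGG and is not shown. The KCC2b footprints start 276 bp and 373 bp after the Slc12a5-201 start (chr2:164968254-164968275 and chr2:164968351-164968369). The second of these holds GCGNGGGCG, the word of the EGR factors, and had the same limits in both libraries, 164968356 to 164968364. EGR4 has been reported as an activator of the mouse gene, and the word was found in 5.55% of RefSeq promoter windows. Over the Slc12a5 region, any searched word was matched in 15 of 109 footprints of replicate 1 and 15 of 95 of replicate 2. Most footprints of the region thus held none of the searched words.
KCC2a footprint: gatcccgCCGCCCcgcgcgccatga
KCC2b footprint, SP/KLF: tgcgccGGGCGGGCGGgcactg
KCC2b footprint, EGR: ggGCGCGGGCGaagcggcg

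**Figure D2:**
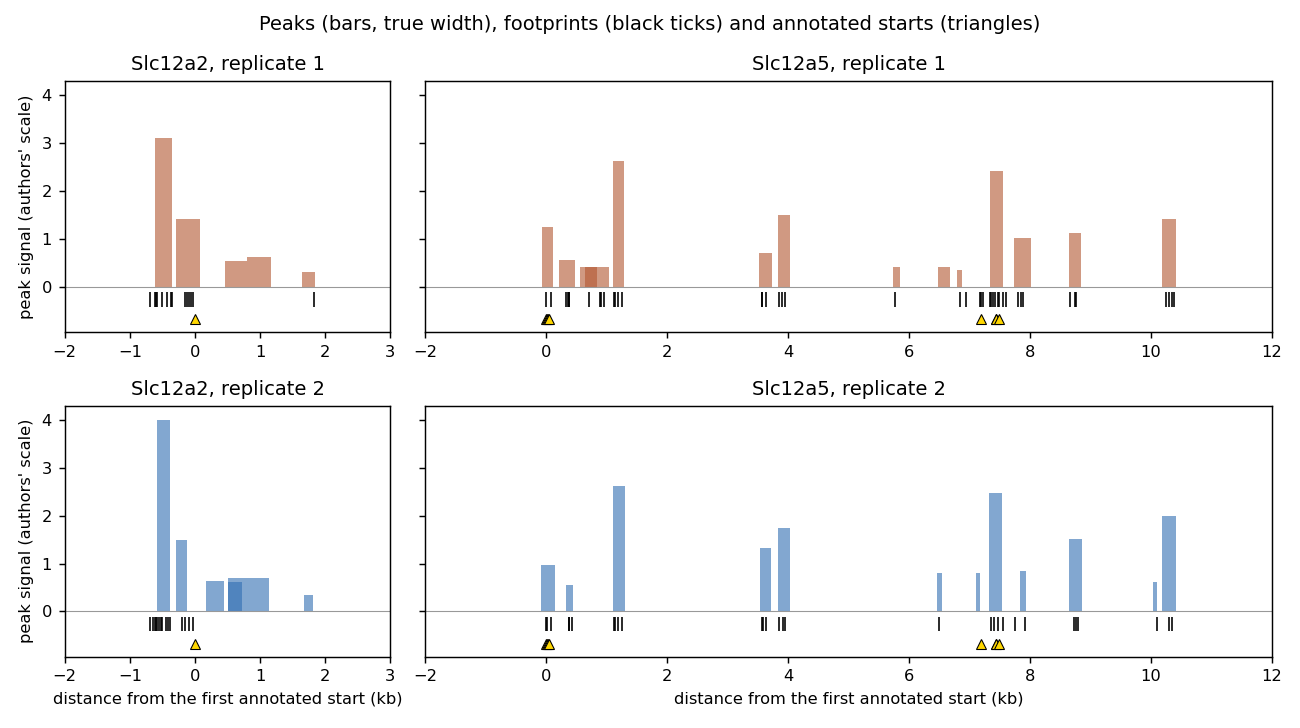
Peak signal (vertical axis, authors' scale) around the starts of Slc12a2 (left) and Slc12a5 (right) in replicate 1 (top) and replicate 2 (bottom), by distance from the first annotated start in kb. Bars are peaks at their true width, black ticks are footprints and triangles are starts; the Slc12a5 peaks at the KCC2b starts (2.41 and 2.48) and in the intron (2.64 and 2.61) exceed the peak at the KCC2a starts (1.25 and 0.977).

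The strongest peak inside Slc12a5 lay in the intron between the first exons and not at a start. It spanned 164961901 to 164962080 in replicate 1 and 164961901 to 164962100 in replicate 2, and had 2.64 and 2.61 (2.62 ± 0.0192). With its edge 1055 bp from the nearest start it fell just outside the promoter window; with a window of 2500 bp it becomes the highest promoter value of the gene. Each library called 4 footprints in it, and 89 of its 200 bases lay in footprints of both. One of these, shown in capitals near its right end above, holds CAGATG, an E-box type bound by neuronal bHLH factors, which was present in 21.2% of the 200-bp windows centred on all replicate 1 peaks.

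Further accessible sites of Slc12a5 lay in its first part and near its 3′ end. Between the first exons, a site at 164964641 had 1.50 and 1.75 and its neighbour at 164964321 had 0.706 and 1.33. After the KCC2b exon the sites at 164968541, 164969441 and 164970981 had 1.01 and 0.835, 1.13 and 1.50, and 1.42 and 2.00. No peak of either library lay between 164975020 and 164994801, and no site found in both lay between 164971220 and 164994801, a stretch that takes up much of the gene. Towards the 3′ end the sites at 164994801, which touches coding sequence, and 164995241 had 1.08 and 0.964, and 0.919 and 1.47. Over the gene body this gave 18 peaks in replicate 1 and 16 in replicate 2, with summed signals of 17.7 and 19.8, against 5 and 4 peaks with 3.16 and 2.28 in the longer Slc12a2. The body begins at the first start, so it leaves out the strongest promoter peak of Slc12a2 (3.12 and 3.99). In replicate 2 it also leaves out the second peak of that gene (1.49). Overlapping peaks of a library were counted and summed separately. More than 2500 bp from its starts Slc12a5 had 3 and 5 peaks, and 2758 genes within 10 kb of its length had a median of 1 in either library.

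The RE1 element, through which the repressor REST silences neuronal genes outside neurons, is known in mouse Slc12a5 on either side of the KCC2b start. It was searched on both strands as CAGCACC and GGACAG, 2 bases apart, with up to 2 mismatches, a pattern present in 1.92% of RefSeq promoter windows and 1.55% of peak windows. The Slc12a5 region held 14 matches, of which 3 lay in a peak of replicate 1 and 2 in a peak of replicate 2. The 4 matches shown are those in a peak and the 1 without mismatch, read on the minus strand with 5 bp on either side, and capitals mark bases equal to the pattern. The first lies in the peak at the start of Zfp335os (chr2:164911294-164911318). The next begins 1409 bp before the Slc12a5-201 start (chr2:164966569-164966593), in a peak of 0.421 listed by replicate 1 alone. Another begins 670 bp after that start (chr2:164968648-164968672), in the peak of 1.01 and 0.835. A footprint overlapped the first in both libraries and those on either side of the KCC2b start in replicate 1 alone. The exact match (chr2:164979934-164979958), 11956 bp after that start in an intron, lay in no peak and no footprint of either library. Of 6 matches in the Slc12a2 region, 0 lay in a peak. Significant intervals covered 1.98% and 2.00% of that region, against 7.75% and 6.42% of the Slc12a5 region. The counts of matches in peaks were not tested against these shares.
RE1-like, Zfp335os: tcaggCAGCgCCggGGACAGccccg
RE1-like, before KCC2b: attttCAGgACCttGGACAGagtcg
RE1-like, after KCC2b: cattcCAGaACCgtGGACAGcgcct
RE1-like, exact: ctgttCAGCACCacGGACAGcagcc

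The flanks of Slc12a5, unlike those of Slc12a2, hold other protein-coding genes. The highest peaks of the region lie in these flanks, at starts of other genes and at an intergenic site. The highest, at 165034781 to 165035020 with 8.33 and 11.5 (9.92 ± 2.26), lies at the start of Ncoa5, a nuclear receptor coactivator gene. The peak over the start of Zfp335os, an antisense transcript, had 4.55 and 4.78 (4.66 ± 0.164). The peak over the start of Zfp335, a zinc finger gene, had 3.13 and 3.41 (3.27 ± 0.200). The Mmp9 intron peak near a start of that matrix protease gene had 2.52 and 1.75 (2.13 ± 0.544), below the strongest peak inside Slc12a5 (2.64 and 2.61). The intergenic site shown above, with 5.06 and 4.43 (4.75 ± 0.440), lay at no start and in no gene. Its edge is 36062 bp before the first start of Slc12a5 and 10471 bp from the nearest start of any gene, that of Zfp335os. It held 7 footprints in replicate 1 and 4 in replicate 2, and 1 of those found in both covers CAGCTG, an E-box word found in 18.3% of peak windows.

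Counted over the regions, the genes lay at opposite sides of the distribution. Slc12a2 had 9 and 10 peaks (9.5 ± 0.707), which is 5.35 and 5.95 per 100 kb, at percentiles 29.0 and 31.6 of protein-coding genes. Slc12a5 had 33 and 31 (32 ± 1.41), or 23.8 and 22.3 per 100 kb, at percentiles 97.2 and 96.1. Of the Slc12a5 peaks, 10 and 11 lay before the gene, 18 and 16 over its 38.9 kb body and 5 and 4 after it. The part of the neighbouring genes in these counts was not tested. Footprints numbered 27 and 25 (26 ± 1.41) against 109 and 95 (102 ± 9.90), and significant intervals covered 3.33 kb and 3.36 kb (3.34 ± 0.0177) against 10.8 kb and 8.92 kb (9.85 ± 1.31). Both measures thus ordered the genes as the peak counts did, while the promoter signals ordered them the other way. Median counts over all genes were 12 peaks in either library and 35 and 34 footprints.

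**Figure D3:**
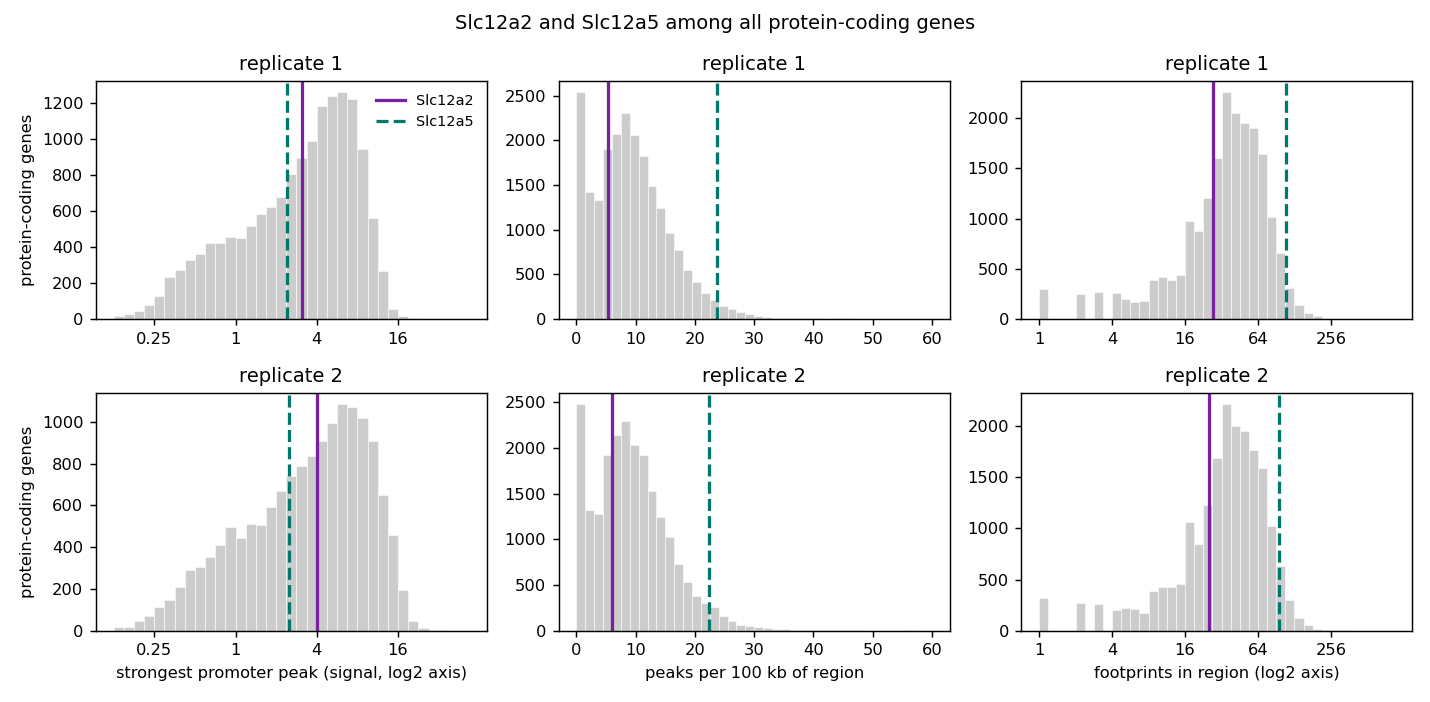
Distribution over all protein-coding genes (grey bars, number of genes) of the strongest promoter signal, the peaks per 100 kb and the footprints per region, for replicate 1 (top) and replicate 2 (bottom), with Slc12a2 (solid line) and Slc12a5 (dashed line); genes without a promoter peak or without a footprint are not drawn in those panels. Slc12a5 sits in the upper tail for peaks per 100 kb (23.8 and 22.3) but left of Slc12a2 for promoter signal (2.41 and 2.48 against 3.12 and 3.99).

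The libraries listed mostly the same sites at both genes. For Slc12a2, 8 of 9 peaks of replicate 1 (88.9%) and 8 of 10 of replicate 2 (80%) overlapped a peak of the other library, against 78.7% and 76.3% of all peaks. For Slc12a5 it was 25 of 33 (75.8%) and 25 of 31 (80.6%). At Slc12a2 the peaks listed in 1 library alone had 0.265 in replicate 1 and 0.276 and 0.633 in replicate 2. At Slc12a5 the 8 of replicate 1 had 0.355 to 0.578 and the 6 of replicate 2 had 0.498 to 0.792, and the highest of each stood at percentiles 52.5 and 58.6 of its library's peaks. None of these private peaks was thus among the strong ones, but some exceeded their library's median signal. Of the private peaks of replicate 1 and replicate 2, 0 and 2 at Slc12a2 and 1 and 2 at Slc12a5 overlapped significant intervals of the other library. A peak listed in 1 library alone is thus not always closed in the other. Of footprints, 18 and 17 at Slc12a2 and 59 and 55 at Slc12a5 were found in the other library too, and 55.0% of all footprints were so in either.

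Across sites found in both libraries, the log2 ratio of replicate 1 over replicate 2 ran between -0.39 and 0.28 at the 8 sites of Slc12a2 and between -1.01 and 0.53 at the 25 of Slc12a5. Its median was -0.13 for each gene. The neighbouring replicate 1 peaks at 57879141 and 57879481 were both paired with the replicate 2 peak at 57879181 to 57879820. The value of that peak thus enters the Slc12a2 ratios more than once. Over all 118593 shared peaks the median was -0.25 with an SD of 0.43, and the central 95% lay between -1.07 and 0.61. None of the 33 sites left that range, and 5.00% of all shared peaks lie outside it. The widest ratio was that of the weak site at 164967272, with 0.403 and 0.811.

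**Figure D4:**
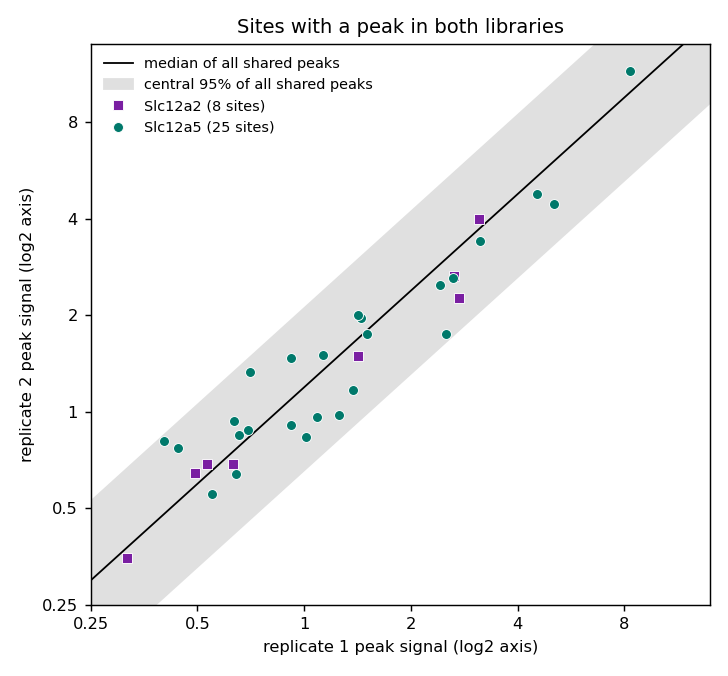
Peak signal in replicate 1 (horizontal, log2 axis) against replicate 2 (vertical, log2 axis) for the 8 sites of Slc12a2 (squares) and the 25 sites of Slc12a5 (circles) with a peak in both libraries. The squares of the replicate 1 peaks at 57879141 and 57879481 share a replicate 2 peak. The line is the median ratio over all 118593 shared peaks and the grey band their central 95%, within which all 33 sites lie.

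Promoters of the other cation-chloride cotransporters covered a wide range. Of 6 examined here, 5 had a promoter peak in both libraries. Slc12a9 (CIP1, a family member of less settled function) had 4.74 and 5.86, above Slc12a2 in each library. Slc12a8 had 1.37 and 1.67, Slc12a7 (KCC4) had 0.810 and 1.04, and Slc12a4 (KCC1) had 0.597 and 0.688. Slc12a3, the thiazide-sensitive cotransporter of the kidney, had 0.469 and 0.602. Slc12a1, the kidney cotransporter NKCC2 and closest relative of NKCC1, had no promoter peak in either library. Apart from Slc12a9, the values given here were below that of Slc12a5 in each library.

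The genes of the lists of regulators, KCC2 binding partners and other chloride handling were mostly open. Of 8 kinases and scaffolds that phosphorylate the cotransporters or help to do so, 7 had a promoter peak in both libraries. Oxsr1, whose product OSR1 acts on them directly, was highest with 9.49 and 12.3 (10.9 ± 1.98), Wnk4 was lowest with 0.658 and 0.479 (0.569 ± 0.127), and Wnk3 had none. All 8 genes of other neuronal chloride and bicarbonate handling were open, between the bicarbonate exchanger gene Slc4a3 (1.11 and 1.30) and the endosomal chloride-proton exchanger gene Clcn3 (8.02 and 11.7). All 6 genes of KCC2 binding partners were open, between Epb41l1, which encodes the cytoskeletal protein 4.1N (1.39 and 1.49), and Ckb, brain creatine kinase (6.06 and 7.48). All 6 genes examined here that have been reported to regulate KCC2 expression were open. Rest was the lowest with 0.942 and 0.799 (0.870 ± 0.102) and Usf1, the gene of an E-box factor, the highest by its mean with 5.33 and 6.81 (6.07 ± 1.05). These shares stand beside the 66.7% of all protein-coding gene models, and no test was made of them.

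**Figure D5:**
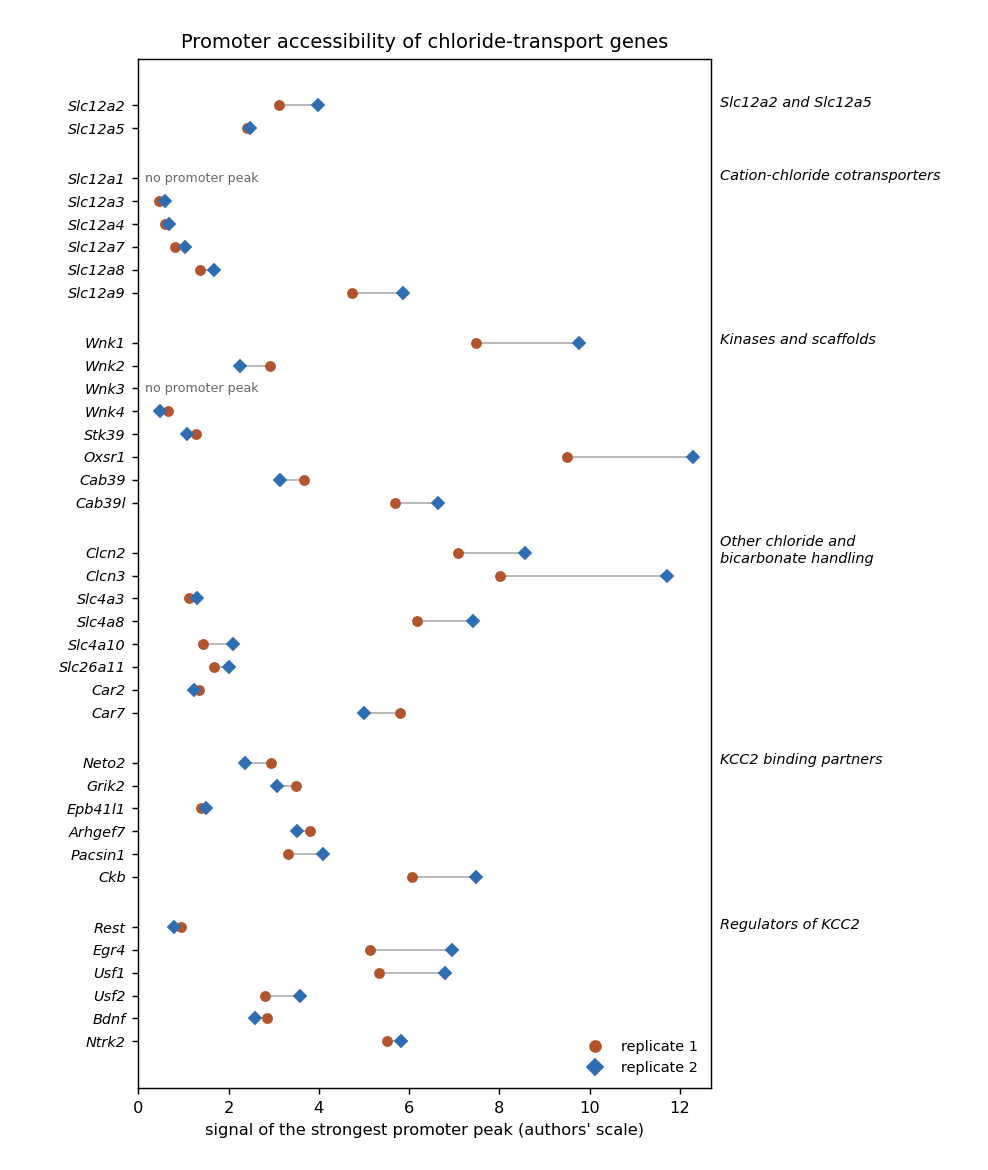
Signal of the strongest promoter peak (horizontal axis, authors' scale) in replicate 1 (circles) and replicate 2 (diamonds) for Slc12a2, Slc12a5 and the 5 lists of related genes. Slc12a2 and Slc12a5 sit between the family member Slc12a9 above and the other family members drawn below, and Slc12a1 and Wnk3 have no promoter peak.

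The genes most like each of the pair were sought over 6 values, the promoter signal, peaks and footprints in each of the 2 libraries, as the Euclidean distance of scaled log2 values. For Slc12a2 these were BC055324 (distance 0.234), Nme2 (0.260) and Tusc3 (0.284), where the median over the genes compared was 2.42. For Slc12a5 they were Pde4a (0.252), Arhgef10l (0.288) and Vav2 (0.299), with a median of 3.21. Pde4a, a cyclic AMP phosphodiesterase gene, had promoter signals of 2.57 and 2.93, 32 and 29 peaks and 111 and 102 footprints. Slc12a5 had 33 and 31 peaks and 109 and 95 footprints. The genes named were chosen on these values, so their closeness follows from the choice.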

How the data were processed

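Each library's files were made by the authors from its own mm10 alignments, per the file headers and notes; replicates were not pooled, and the aligner, the callers with their versions, and the depth of sequencing were not given in the sources used here. The deposited signal of a peak was taken as its height as scaled by the authors. Low signals (under 0.3, the only ones checked: 57 and 41 values) were whole multiples of 0.00474 and 0.00614 within 0.05 of a step. If a step is 1 cleavage, the Slc12a2 promoter peak rests on 658 and 650 of them, a counting error of 3.90% and 3.92%, which covers counting only. The deposited q-value (false discovery rate) intervals cover 43.1 Mb and 42.9 Mb, and only intervals up to 0.05 are listed. The deposited score column of the footprint files held 1 constant and was not used.

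The larger peak list of each library was used, with GENCODE M21 gene models. A promoter peak lay within 1000 bp of an annotated start, and shared peaks overlapped by at least 1 bp. Percentiles are ranks among protein-coding genes (for promoter signal, those with a promoter peak) or among the library's peaks. Motif search covered both strands and used footprints widened by 5 bp on each side. With 1 group of 2 libraries no test was made. Named were all starts and promoter peaks, the 5 highest other peaks per region, the cotransporter family, list extremes and the 3 most like genes; further single sites and motif matches were chosen after their values were seen. Of the list genes, 2 are left out of all counts and values and are not reported here; others without a value of their own are in the counts. Members and lists were chosen with earlier results of these data known. Assignment, sharing and word search were tested on simulated data. Python 3.11.15, NumPy 2.4.6, pandas 2.3.3, pysam 0.24.0 and Matplotlib 3.10.9 were used.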

Additional observations from a re-analysis of the deposited data

How the results depend on the processing

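Of 63 alternatives to 11 results, 38 left the value within the spread of the libraries (for counts, within 1.5 times) and 25 moved it. A sign turned in 0 of them, though only the log2 ratio could turn. The 38 include every setting that left out a library. Such a setting returns the other library's value in the text, which with 2 libraries always lies within their spread. No paired analysis was possible because there is 1 group. A promoter window of 2500 bp gave Slc12a5 a signal of 2.62. Taking just the gene model's 5′ end gave 1.11 and moved the log2 ratio of Slc12a2 over Slc12a5 to 1.67. Without flanks the mean peak counts were 4.5 for Slc12a2 and 17 for Slc12a5, with 10 kb flanks 6 and 19.5, in the stricter list 21 for Slc12a5, and among the stronger 50% of peaks 5 for Slc12a2. Mean footprint counts were 1 and 48 without flanks, 15 and 53 with 10 kb flanks, and 57 for Slc12a5 with footprints of both libraries. The setting without flanks leaves out the strongest promoter peak of Slc12a2 and every footprint before its first start. Significant intervals covered 2.64 kb and 6.56 kb up to 0.001, and 1.39 kb and 4.33 kb without flanks. Shares of peaks found in both libraries were 63.3% and 68.8% at an overlap of 50%, 93.8% and 88.7% in the stricter list, 77.5% and 70.8% without flanks, and 67.1% for Slc12a5 with 10 kb flanks. The order of the genes held in each of these settings for peaks, footprints and intervals. With 2 libraries and no stated depth, differences under the spread of the libraries could not be resolved.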
